A study of Mus musculus with 16 samples.

Results

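VSM_1 is a cluster of cells that the authors named as vascular smooth muscle (VSM) in brown adipose tissue of the mouse, the heat-producing fat between the shoulder blades. Its members were taken as every cell that carries the cluster name VSM_1 in the authors' deposited annotation. There were 2229 such cells, which is 9.15% of the 24352 cells with a name, 18% of the 12372 cells in the 10 VSM clusters and 2.03% of all 109723 annotated cells. VSM_1 was the second largest of the 10 VSM clusters, after VSM_0 with 2287 cells.

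All mice were of the C57BL6J strain, and no transgene or other agent is named in the labels. They were housed at 30 °C for 1 week (thermoneutral), at 22 °C for 1 week (room temperature), or in the cold at 5 °C, for 2 days or for 7 (2-day and 7-day cold). Cells of the stromal vascular fraction, obtained by digesting interscapular brown fat, discarding the floating adipocytes and depleting red blood cells and dead cells, were profiled with droplet-based single-cell RNA sequencing. Each housing had 4 libraries, and 2-day cold replicate 1 held no cell with a name, so named clusters were compared over 15 of the 16 libraries. The labels do not say whether a library is 1 mouse or a pool, or what same-numbered libraries share. The p-values therefore concern only these libraries, and limma estimates their spread in part from all clusters tested together.

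Vascular smooth muscle cells form the contractile layer of arteries, arterioles and veins and set vessel diameter by contracting through actin and smooth muscle myosin. Acta2 (smooth muscle actin), Myh11 (smooth muscle myosin heavy chain), Tagln (transgelin) and Cnn1 (calponin) are their usual markers, and pericytes of small vessels share a part of this programme. Brown adipose tissue is densely vascularised, and its blood flow rises when it produces heat. Levels of genes were not analysed here, so the name VSM_1 was not checked against these markers, and the results below concern the number, depth, quality and cell cycle calls of the cells.

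VSM_1 had its lowest mean share of the named cells after 7 days of cold, and whether that difference passed the test depended on the fit and the scaling used. At thermoneutrality the share was 2.57%, 5.06%, 26.2% and 23.0% in replicates 1 to 4, a mean of 14.2% ± 12.1 (SD, n = 4). At room temperature it was 8.80%, 7.08%, 18.2% and 11.2%, a mean of 11.3% ± 4.90 (SD, n = 4). The thermoneutral libraries fell apart into a low and a high pair, and the room temperature libraries lay between those pairs.

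After 2 days of cold the share was 2.14%, 8.87% and 6.36% in replicates 2 to 4, a mean of 5.79% ± 3.40 (SD, n = 3). After 7 days of cold it was 2.17%, 1.59%, 1.8% and 6.81%, a mean of 3.09% ± 2.49 (SD, n = 4). All 7-day cold libraries lay below all room temperature libraries, while they overlapped the thermoneutral ones through thermoneutral replicates 1 and 2. The 4 shares after 7 days rest on 17, 17, 11 and 32 cells, so their counting error is wide: the 95% Wilson interval was 1.01% to 3.19% in replicate 3 and 4.86% to 9.45% in replicate 4. By contrast, 587 VSM_1 cells came from thermoneutral replicate 4 alone.

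**Figure D1:**
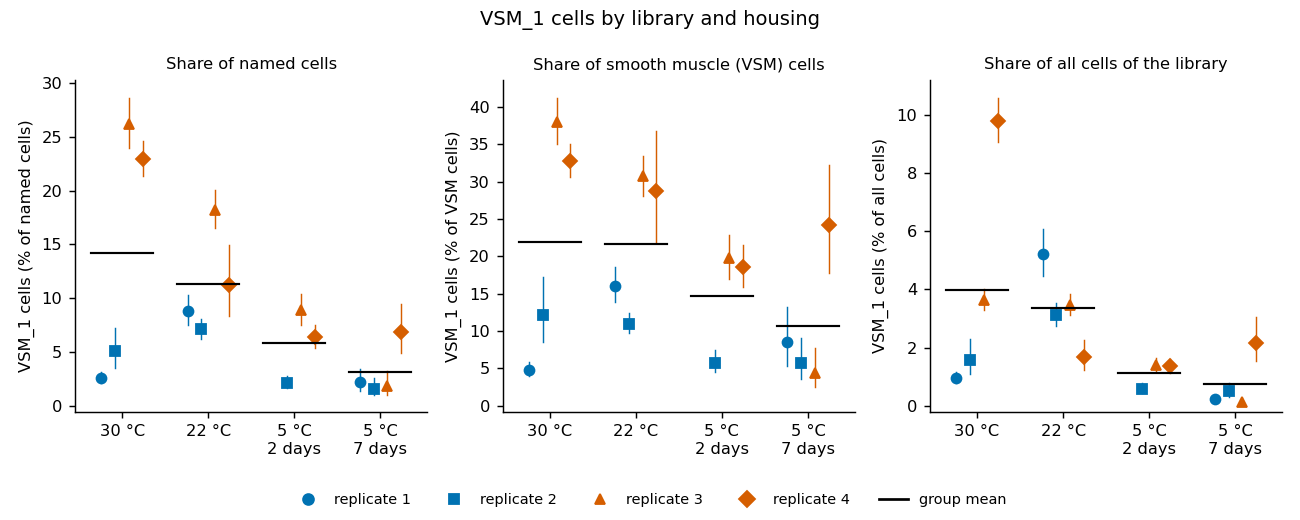
Share of VSM_1 in each library by housing, in percent of named cells, of VSM cells and of all cells, with 1 symbol per replicate, a 95% Wilson interval as a vertical line and a horizontal line at the group mean. At thermoneutrality replicates 3 and 4 lie above replicates 1 and 2 in each panel, and the 4 libraries span 2.57% to 26.2% of named cells.

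On the log2 odds scale, with 4 housings in one limma fit, VSM_1 was lower by 2.04 ± 0.82 (SE) after 7-day cold than at thermoneutrality, an estimate of -2.04 with a 95% interval of -3.78 to -0.29. This was the lowest estimate of the 27 named clusters tested, and its adjusted p was 0.0537, which misses the threshold of 0.05. In that comparison 37% of the 27 clusters passed, 9 higher and 1 lower. Without any term for the replicates, the same difference passed by edgeR (-2.23, adjusted p = 0.0289), with TMM scaling in edgeR (-2.67, adjusted p = 0.0220) and on centred log ratios in limma (-2.59, adjusted p = 0.0271). Against room temperature the estimate was -2.15 ± 0.82 (SE), with a 95% interval of -3.89 to -0.41 and an adjusted p of 0.0727, where 7.41% of the 27 clusters passed.

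For 2-day cold the estimate was -1.07 ± 0.88 (SE) against thermoneutrality (adjusted p = 0.424, limma) and -1.19 ± 0.88 against room temperature (adjusted p = 0.383). Room temperature and thermoneutrality differed by 0.12 ± 0.82 (SE), with a 95% interval of -1.62 to 1.86, an interval wide enough to hold a several-fold difference in odds either way. Between 7 and 2 days of cold the estimate was -0.96 ± 0.88 (adjusted p = 0.647).

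The replicate number went with the VSM_1 share. In 4 of 4 housings the mean of replicates 3 and 4 was above that of replicates 1 and 2, as a share of named cells and as a share of VSM cells. As a share of all cells this held in 3 of 4 housings, and room temperature went the other way. Over all housings the mean share of named cells was 12.8% ± 8.69 (SD, n = 8) for replicates 3 and 4, against 4.2% ± 2.83 (SD, n = 7) for replicates 1 and 2. Thermoneutral replicates 3 and 4 alone held 42.6% of all VSM_1 cells. In the labels' running order of samples, replicates 1 and 2 of every housing come before replicates 3 and 4 of any, but what the pairs of numbers share is not given in the sources used here.

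With this split as a term in the fit, VSM_1 fell by 2.04 ± 0.55 (SE) from thermoneutrality to 7-day cold (log2 odds, adjusted p = 0.0095, limma), where 63% of the 27 named clusters passed, 12 higher and 5 lower. From room temperature to 7-day cold it fell by 2.15 ± 0.55 (adjusted p = 0.0146), where 29.6% of the clusters passed, 5 higher and 3 lower. For 2-day cold the estimate was -1.36 ± 0.60 against thermoneutrality (adjusted p = 0.118). The term for the split itself was 1.71 ± 0.41 (SE) for VSM_1, higher in replicates 3 and 4, with an adjusted p of 0.0090, and it passed in 18.5% of the 27 clusters. The split was chosen with earlier results of these libraries known, so neither its p nor those of the housing comparisons fitted with it are independent evidence. The 7-day cold estimates were the same without the term, and their SE was smaller with it.

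**Figure D2:**
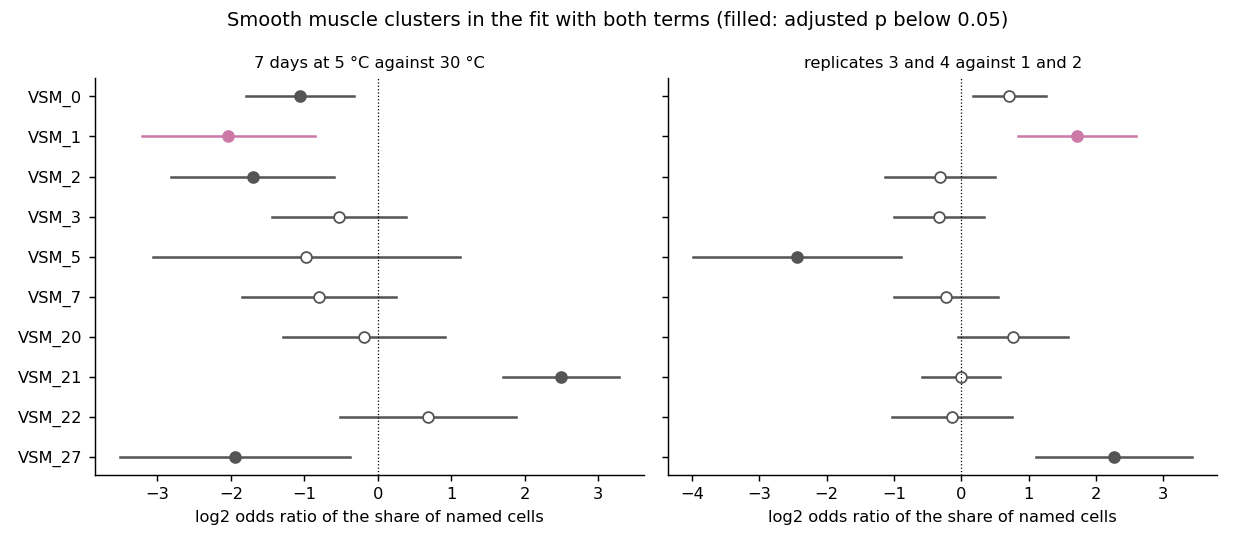
Log2 odds ratios of the share of named cells with 95% intervals for the 10 VSM clusters, from the limma fit with both housing and the split of replicate numbers, with filled points for an adjusted p below 0.05. VSM_1, in colour, lies at -2.04 for 7-day cold against thermoneutrality and at 1.71 for replicates 3 and 4 against 1 and 2, and VSM_5 lies at -2.44 for the latter.

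Within replicates 1 and 2 the estimate for 7-day cold against thermoneutrality was -0.96 (adjusted p = 0.209, limma), and within replicates 3 and 4 it was -3.11 (adjusted p = 0.0345). Against room temperature the estimates were -2.14 (adjusted p = 0.0126) and -2.16 (adjusted p = 0.253). All 4 of these values lie below 0, and the room temperature estimates were of nearly the same size, with SEs of 0.61 and 0.80. These fits divide the libraries of the main fit, so they are not independent support for its estimates. Room temperature against thermoneutrality turned its direction between the pairs, with 1.18 in replicates 1 and 2 and -0.95 in replicates 3 and 4. Over all 28 alternatives tried, the adjusted p for 7-day cold against thermoneutrality ran from 0.0095 to 0.623, and that against room temperature from 0.0126 to 0.572.

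A minimum on UMIs gave smaller estimates. When only cells at or above the median of 7085 UMIs of all named cells were counted, the estimate for 7-day cold was -0.67 against thermoneutrality (adjusted p = 0.623, limma), in place of -2.04. Against room temperature it was -1.30 (adjusted p = 0.572), in place of -2.15. Both kept their direction. That minimum kept 81.2% ± 12.2 (SD, n = 4) of the VSM_1 cells and 37.7% ± 4.92 of the other named cells in the 7-day cold libraries. In the thermoneutral libraries it kept 45.8% ± 32.5 (SD, n = 4) and 47.4% ± 11.4. At room temperature it kept 70.5% ± 35.9 (SD, n = 4) and 53.8% ± 21.8. Where it kept more of VSM_1 than of the other named cells, it raised the share of VSM_1. The smaller estimates hold for cells at or above the minimum, which were not matched for depth. The part of depth in the lower share was not tested.

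As a share of VSM cells, which sets VSM_1 against the other smooth muscle clusters, no comparison of VSM_1 between housings passed the test. The share was 4.79%, 12.2%, 38.1% and 32.8% in the thermoneutral libraries and 16.1%, 11.0%, 30.8% and 28.8% in the room temperature libraries. It was 5.78%, 19.7% and 18.5% after 2 days of cold and 8.50%, 5.74%, 4.42% and 24.2% after 7 days. The groups overlapped in every pair of housings.

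The group means were 22.0% ± 16 (SD, n = 4) at thermoneutrality, 21.7% ± 9.63 (n = 4) at room temperature, 14.7% ± 7.73 (n = 3) after 2 days and 10.7% ± 9.17 (n = 4) after 7 days of cold. The estimate for 7-day cold was -1.13 ± 0.83 (SE) against thermoneutrality, with a 95% interval of -2.90 to 0.64 (adjusted p = 0.367, limma over the 10 VSM clusters, of which 10% passed). Within replicates 1 and 2 it was -0.13 and within replicates 3 and 4 it was -2.13. Against room temperature the estimate was -1.38 ± 0.83, with a 95% interval of -3.15 to 0.39 (adjusted p = 0.291, where 20% of the 10 clusters passed), and -1.0 and -1.77 within the pairs.

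As a share of all cells of the library, named or not, VSM_1 was 0.960%, 1.57%, 3.63% and 9.80% at thermoneutrality and 5.21%, 3.12%, 3.48% and 1.68% at room temperature. It was 0.590%, 1.4% and 1.35% after 2 days and 0.231%, 0.488%, 0.128% and 2.17% after 7 days of cold. Here 7-day cold replicate 4 lay above room temperature replicate 4 and above thermoneutral replicates 1 and 2. With this denominator the log2 odds estimates for 7-day cold were -2.70 against thermoneutrality (adjusted p = 0.0887, limma) and -2.89 against room temperature (adjusted p = 0.0630).

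The smooth muscle total as a share of named cells also had lower means in the cold, given here without a test. VSM cells were 58.5% ± 13.6 (SD, n = 4) of the named cells at thermoneutrality, 54.3% ± 11.0 (n = 4) at room temperature, 38.8% ± 5.49 (n = 3) after 2 days and 30.5% ± 6.92 (n = 4) after 7 days of cold. Shares of named cells add up to a fixed total, so a lower share of VSM_1 and fewer VSM_1 cells in the tissue cannot be told apart here. Digestion, removal of the adipocyte layer and depletion of dead cells also set which cells were counted, and their part in these shares was not tested.

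In 7-day cold against thermoneutrality, 8 of the 10 VSM clusters had an estimate below 0 among named cells. In the fit without a term for the replicates, VSM_2 fell by 1.70 on the log2 odds scale (adjusted p = 0.026, limma) and VSM_21 rose by 2.49, and they were the VSM clusters that passed. VSM_0 had an estimate of -1.06 (adjusted p = 0.058), close to the threshold on the same side as VSM_1. VSM_27 had -1.95 (adjusted p = 0.136), VSM_5 -0.97, VSM_7 -0.80 and VSM_3 -0.53. With the split of replicates as a term, VSM_0 (adjusted p = 0.0217), VSM_1, VSM_2 (adjusted p = 0.0177) and VSM_27 (adjusted p = 0.0342) passed as lower and VSM_21 as higher.

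VSM_1 changed its place among the VSM clusters with the library. It ranked 6, 5, 1 and 1 of the 10 clusters by size in the thermoneutral libraries and 4, 5, 1 and 2 at room temperature. It ranked 6, 2 and 2 after 2 days of cold and 6, 7, 8 and 1 after 7 days. The top rank was reached in replicates 3 and 4 only, in 4 of the 15 libraries.

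VSM_5 showed the opposite arrangement over replicate numbers. It was 24.3%, 19.0%, 2.83% and 2.40% of VSM cells in the thermoneutral libraries. It was 12.1%, 22.4% and 1.41% in room temperature replicates 1 to 3 and had 0 cells in replicate 4, which allows a share of up to 2.16%. In the cold it was 24.5%, 2.90% and 10.7% after 2 days and 4.50%, 14.9%, 13.7% and 3.03% after 7 days. Where VSM_5 was low VSM_1 was high in the warm libraries, and 7-day cold replicate 3, with little VSM_1 and much VSM_5, lay with replicate 2 and not with replicate 4.

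Over all housings VSM_1 was 9.16% ± 4.15 (SD, n = 7) of the VSM cells of replicates 1 and 2, and VSM_5 was 17.4% ± 7.39. For replicates 3 and 4 these shares were 24.7% ± 10.5 (SD, n = 8) and 4.62% ± 4.84. Among VSM cells the term for the split was 1.68 ± 0.42 (SE) for VSM_1 and -2.74 ± 0.63 for VSM_5, each with an adjusted p of 0.0039 in limma, and it passed in 30% of the 10 clusters. VSM_27, a small cluster of 240 cells, was the other one that passed, with 2.11 ± 0.51. The shares have a common denominator, so a high share of one cluster lowers the others.

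The sum of VSM_1 and VSM_5, chosen after the values had been seen and therefore given without a test, varied less between libraries of a housing than VSM_1 did. It was 29.1%, 31.2%, 40.9% and 35.2% of VSM cells at thermoneutrality, 28.2%, 33.4%, 32.2% and 28.8% at room temperature, and 30.3%, 22.6% and 29.2% after 2 days of cold. After 7 days of cold it was 13.0%, 20.6%, 18.1% and 27.3%. Every 7-day cold library lay below every thermoneutral and every room temperature library. The mean sum was 29.3% ± 7.09 (SD, n = 8) for replicates 3 and 4, near the 26.5% ± 7.20 (SD, n = 7) of replicates 1 and 2.

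As a share of named cells, the same sum was 20.3% ± 7.23 (SD, n = 4) at thermoneutrality, 16.8% ± 4.50 (n = 4) at room temperature, 10.5% ± 0.642 (n = 3) after 2 days and 6.01% ± 1.99 (n = 4) after 7 days of cold. The 7-day cold libraries, at 3.32% to 7.66%, did not overlap the thermoneutral libraries, at 12.9% to 28.1%.

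**Figure D3:**
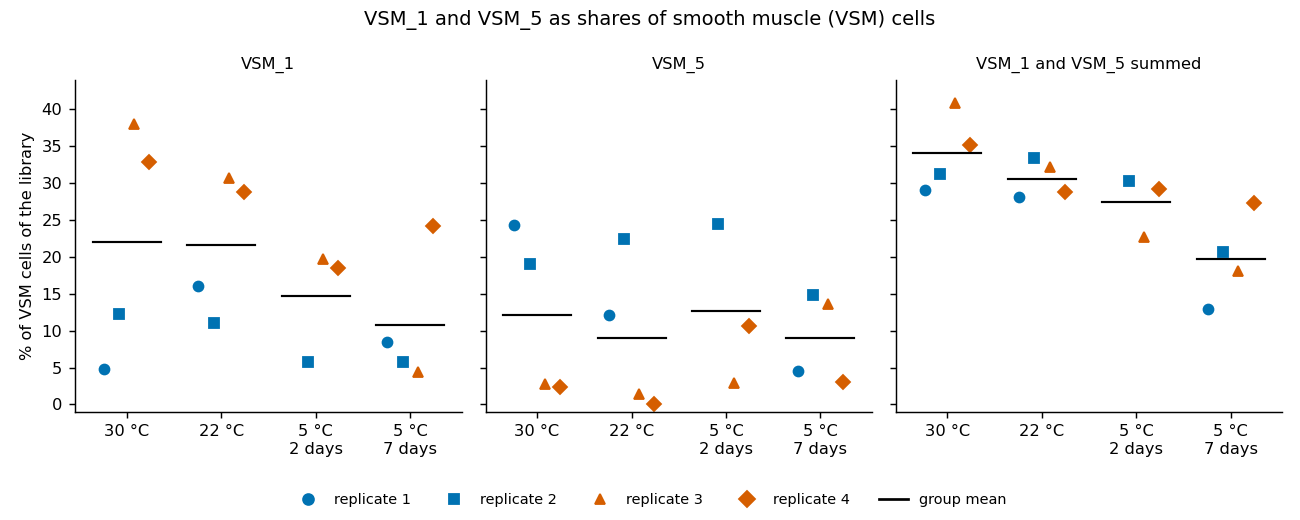
VSM_1, VSM_5 and their sum in percent of the VSM cells of each library, with 1 symbol per replicate and a line at the group mean. VSM_1 is high and VSM_5 low in thermoneutral and room temperature replicates 3 and 4, and the sum at 7-day cold, 13.0% to 27.3%, lies below the 28.2% to 40.9% of these housings.

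The clustering of all 109723 cells, which the authors also deposited, placed VSM_1 in a broader group. At resolution 1.8, the finest of that table, cluster 4 held 2160 of the VSM_1 cells, or 96.9%. Of the cells in cluster 4, 37.4% were VSM_1, 21.8% VSM_5, 19.6% VSM_2 and 5.84% VSM_0, and 8.31% carried no name. It held 79.2% of the VSM_5 cells and 54.0% of the VSM_2 cells. VSM_1 and VSM_5, which went opposite ways over the replicate numbers, thus lay in one cluster when all cells were clustered together.

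Cluster 4 could be compared over all 16 libraries, 2-day cold replicate 1 included. It was 7.04%, 5.19%, 6.21% and 15.7% of all cells at thermoneutrality and 12.7%, 12.1%, 6.88% and 3.31% at room temperature. It was 1.07%, 3.83%, 3.45% and 3.62% after 2 days and 0.775%, 2.44%, 1.13% and 3.60% after 7 days of cold. All 8 cold libraries lay below all thermoneutral libraries, while room temperature replicate 4 lay among the cold ones.

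The means were 8.53% ± 4.82 (SD, n = 4), 8.75% ± 4.47 (n = 4), 2.99% ± 1.29 (n = 4) and 1.99% ± 1.29 (n = 4) in the same order of housings. The estimate for 7-day cold against thermoneutrality was -2.31 ± 0.69 (SE), with a 95% interval of -3.76 to -0.85, an unadjusted p of 0.00400 and an adjusted p of 0.110 in limma. In that comparison 0 of the 55 clusters tested passed, 8 had an unadjusted p under 0.05, and edgeR called 0. Against room temperature the estimate was -2.30 ± 0.69 (adjusted p = 0.218), with 0 of 55 passing, 10 at an unadjusted p under 0.05 and 0 by edgeR.

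For 2-day cold against thermoneutrality the adjusted p of cluster 4 was 0.251, where 9.09% of the 55 clusters passed, and against room temperature it was 0.221, where 5.45% passed. Without 2-day cold replicate 1 the estimate against thermoneutrality was -1.17 (adjusted p = 0.531). That replicate held 107 cells of cluster 4. The term for replicates 3 and 4 against 1 and 2 was 0.17 ± 0.48 (SE) for cluster 4 (adjusted p = 0.874, limma), where 23.6% of the 55 clusters passed. The term passed for VSM_1 and not for the broader cluster. For VSM_1 it is on shares of named cells over 15 libraries. For cluster 4 it is on shares of all cells over 16 libraries. The difference between these terms was not itself tested.

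Within the named cells of cluster 4, VSM_1 made up 47.5% ± 16.4 (SD, n = 8) for replicates 3 and 4 and 24.8% ± 9.41 (SD, n = 7) for replicates 1 and 2. In the same order, VSM_5 made up 9.66% ± 11.6 and 37.4% ± 16.8 of these cells, and VSM_2 19.0% ± 8.15 and 21.6% ± 4.23. The VSM_1 share was 14.0%, 29.5%, 64.0% and 61.8% in the thermoneutral libraries. After 7 days of cold it was 26.9%, 19.0%, 12.8% and 56.6%, so 7-day cold replicate 4 stood with the warm replicates 3 and 4 and replicate 3 did not.

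VSM_1 was joined or split at other resolutions of the authors' clustering. At resolution 0.4, 2228 of its cells lay in 1 cluster with 1575 VSM_2 and 1426 VSM_5 cells. At resolution 0.6, 90.0% of VSM_1 lay with 852 VSM_5 and 308 VSM_7 cells, and a further 9.65% lay with most of VSM_2. At resolution 1.0 the cells stood nearly alone: 97.6% of them were in a cluster that was 99.2% VSM_1. VSM_5 thus shared the main cluster of VSM_1 at resolutions 0.4 and 0.6. VSM_2 did so at 0.4, while at 0.6 most of it lay with the 9.65% of VSM_1.

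At resolution 1.8 of the named cells, VSM_1 was divided almost evenly, with 1089 cells (48.9%) in cluster 1 and 1064 (47.7%) in cluster 0. Cluster 1 also held 281 VSM_7, 206 VSM_5 and 86 VSM_21 cells, while cluster 0 also held 756 VSM_2 cells. The share of VSM_1 in cluster 1 was 50.0%, 22.2%, 57.6% and 49.2% in the thermoneutral libraries and 26.4%, 27.1%, 72.1% and 60.0% at room temperature. It was 27.8%, 49.3% and 39.3% after 2 days and 35.3%, 29.4%, 27.3% and 46.9% after 7 days of cold, so the housings overlapped.

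By replicate number that share was 50.2% ± 13.6 (SD, n = 8) for replicates 3 and 4 and 31.2% ± 9.19 (SD, n = 7) for replicates 1 and 2. The VSM_1 cells of cluster 1 had a median of 5756 unique molecular identifiers (UMIs, the count of distinct captured RNA molecules) per cell, and those of cluster 0 had 8065. These medians pool cells over libraries of unequal depth. Within thermoneutral replicates 3 and 4 and room temperature replicate 3, cluster 1 had medians of 4831, 6007 and 4801. Cluster 0 had 5419, 7213 and 4994 there. Cluster 0 had the higher median in 10 of 15 libraries. These are descriptions of clusters formed on the same cells and were not tested.

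**Figure D4:**
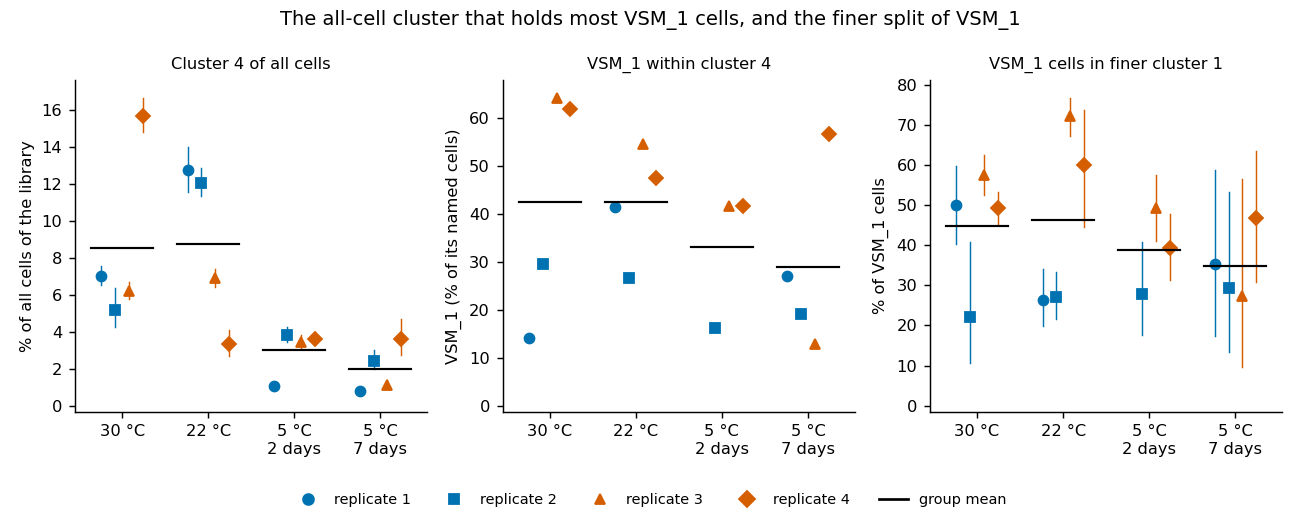
Cluster 4 in percent of all cells of each library, VSM_1 in percent of the named cells of cluster 4, and the percent of VSM_1 cells in the finer cluster 1, with 1 symbol per replicate, a line at the group mean and vertical 95% Wilson intervals in the first and last panels. The cold libraries lie at 0.775% to 3.83% in cluster 4 and the thermoneutral ones at 5.19% to 15.7%, and VSM_1 is a larger part of that cluster in replicates 3 and 4 except in 7-day cold replicate 3.

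A VSM_1 cell had a median of 6897 UMIs, with quartiles of 5093 and 10364 and a range of 806 to 55013, and a median of 2376 detected genes. These values pool cells over libraries of unequal size and depth, with library medians from 4841 to 19021 UMIs. Among the VSM clusters with at least 10 cells in a library, 4 to 10 of them, its median rank over the 15 libraries was 6 for median UMIs, 5 for median genes, 5 for the mitochondrial share and 4 for the share of cells called in S or G2M phase, counted from the highest. Within libraries its median UMI count was below that of the other VSM cells in 14 of 15, the exception being 7-day cold replicate 2. Its mitochondrial share was lower in 9 of 15 libraries and its share of S or G2M calls was higher in 10 of 15. The clusters were formed on these cells, so these are descriptions without a test. One cell barcode, of the 2229 cells, was found in more than 1 library.

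Depth per VSM_1 cell was highest after 7 days of cold, within overlapping groups. The median UMI count was 6181, 10948, 5065 and 6701 in the thermoneutral libraries and 11597.5, 8702, 4841 and 10121 at room temperature. It was 9796.5, 10299.5 and 6130 after 2 days and 11240, 19021, 7964 and 10590 after 7 days of cold. Replicate 2 after 7 days, with 17 cells, stood highest, and the lowest of that group lay above 3 of the 4 thermoneutral libraries.

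The 7-day cold estimate against thermoneutrality was 0.74 ± 0.35 (SE) on the log2 scale, with a 95% interval of 0.05 to 1.43 and an adjusted p of 0.198 in limma over 23 clusters, of which 4.35% passed. The rise was shared: the median estimate was 0.68 over the 8 VSM clusters tested and 0.35 over all 23. Of the 8 VSM clusters 1 had an estimate below 0, as had 9 of all 23. With the split of replicates as a term, the estimate of VSM_1 was 0.74 ± 0.27 (adjusted p = 0.0376), where 21.7% of the clusters passed. Over all 20 alternatives the adjusted p ran from 0.0376 to 0.387. A two-sided exact permutation test on the library values gave p = 0.0857, with no adjustment over clusters. Without the term for the split, the limma fit had 200 degrees of freedom from 15 libraries. It treats clusters of the same library as independent, so its p-values can be too small. Replicates 3 and 4 had lower depth in 4 of 4 housings, with a term of -0.52 ± 0.20 (adjusted p = 0.0191), which passed in 65.2% of the 23 clusters.

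The mitochondrial share of UMIs, a common sign of cell stress or damage, had a median of 8.19% over all VSM_1 cells, and 2 cells reached 20%. The median per library was 6.90%, 9.0%, 8.14% and 8.68% at thermoneutrality, 7.61%, 6.76%, 8.34% and 10.3% at room temperature, and 6.05%, 9.07% and 8.57% after 2 days of cold. After 7 days it was 9.96%, 10.2%, 9.25% and 9.68%, a mean of 9.78% ± 0.416 (SD, n = 4) against 8.18% ± 0.925 at thermoneutrality. All 4 of the 7-day libraries lay above all thermoneutral ones. The other VSM cells of the same libraries had means of 10.0% ± 0.504 (SD, n = 4) and 8.27% ± 1.16.

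The log2 estimate was 0.26 ± 0.19 (SE), with a 95% interval of -0.13 to 0.66 and an adjusted p of 0.294 in limma, where 4.35% of the 23 clusters passed. Of the 8 VSM clusters tested 1 had an estimate below 0, as had 5 of all 23, and the median estimate was 0.31 over the VSM clusters and 0.35 over all. A two-sided exact permutation test on the same library values gave p = 0.0286, the smallest that 4 libraries against 4 allow, with no adjustment over clusters. Room temperature gave 0.00 ± 0.19 (95% interval -0.39 to 0.40) and 2-day cold -0.07 ± 0.20 (95% interval -0.49 to 0.36) against thermoneutrality.

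Fewer VSM_1 cells were called in S or G2M phase after 7 days of cold, in the annotation of the named cells. S is the phase of DNA synthesis, and G2M covers the gap and mitosis that follow it. The share was 60.4%, 40.7%, 64.5% and 68.1% in the thermoneutral libraries and 67.6%, 64.2%, 67.8% and 72.5% at room temperature. It was 33.3%, 44.9% and 48.9% after 2 days and 47.1%, 35.3%, 36.4% and 40.6% after 7 days of cold. All cold libraries lay below all room temperature libraries, and thermoneutral replicate 2, with 27 cells, lay among the cold ones.

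The means were 58.4% ± 12.2 (SD, n = 4), 68.0% ± 3.40 (n = 4), 42.4% ± 8.07 (n = 3) and 39.8% ± 5.34 (n = 4) in the same order. From thermoneutrality to 7-day cold the share fell by 1.07 ± 0.39 (SE) on the log2 odds scale, with a 95% interval of -1.86 to -0.28 and an adjusted p of 0.0201 in limma. In that comparison 47.8% of the 23 clusters passed, 9 of these 11 downwards, VSM_1 among them. With the split of replicates as a term it fell by 1.07 ± 0.33 (adjusted p = 0.0079), where 52.2% of the clusters passed. Within replicates 1 and 2 the means were 50.6% at thermoneutrality and 41.2% after 7 days, and within replicates 3 and 4 they were 66.3% and 38.5%.

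The call for VSM_1 was lost under some alternatives. A two-sided exact permutation test gave p = 0.0571. Without thermoneutral replicate 3 the adjusted p was 0.0599, without thermoneutral replicate 4 it was 0.104, and without 7-day cold replicate 2 it was 0.0673. With at least 20 cells required per library, 7-day cold replicate 4 alone was left in its group and is assumed to vary like the libraries of the other groups; the estimate was then -1.04 (adjusted p = 0.184), of nearly the same size. Over all 20 alternatives the adjusted p ran from 0.00399 to 0.434. The value of 0.434 came from the phase calls of the table of all cells, given below with their limit.

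For 2-day cold the estimate was -0.96 ± 0.42 (SE), with a 95% interval of -1.81 to -0.10 and an adjusted p of 0.174, and for room temperature it was 0.57 ± 0.39 (adjusted p = 0.796). With 7-day cold, 6 of the 8 VSM clusters tested passed and all 8 had estimates below 0. Their median estimate was -1.47, beside -0.89 over all 23 clusters. VSM_0 had -1.78 and VSM_2 had -1.80, each with an adjusted p of 0.00128, and VSM_5 had -1.46 (adjusted p = 0.0153). The value of VSM_1 was nearer 0 than those of these neighbours, a difference that was not tested.

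Taken apart, the calls of G2M had the larger gap between the means of the housings. G2M cells were 25.2% ± 9.56 (SD, n = 4) of VSM_1 at thermoneutrality, 27.4% ± 2.13 (n = 4) at room temperature, 13.4% ± 4.86 (n = 3) after 2 days and 8.16% ± 5.58 (n = 4) after 7 days of cold. S cells were 33.2% ± 4.46, 40.6% ± 3.82, 28.9% ± 7.93 and 31.7% ± 7.72 in the same order. These are parts of the tested share and were not tested apart. The 7-day mean of G2M rests on few cells, with 11.8%, 11.8%, 9.09% and 0% of 17, 17, 11 and 32 cells. The count of 0 allows up to 9.38%. The other VSM cells had a similar pattern, with mean G2M calls of 25.9% at thermoneutrality and 9.54% after 7 days. Their S calls were 30.3% and 26.0%.

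The G2M score behind the calls, a module score that compares G2M genes with background genes in each cell, followed the housing in its medians. The median score of VSM_1 was -0.0102, -0.0184, -0.0071 and -0.0098 in the thermoneutral libraries and -0.0102, -0.0087, -0.0081 and -0.0157 at room temperature. It was -0.0256, -0.0327 and -0.0279 after 2 days and -0.0441, -0.0394, -0.0603 and -0.0543 after 7 days of cold. The cold libraries lay below all warmer ones, and those of 7 days below those of 2 days, without overlap. The other VSM cells of the same libraries ran from -0.0185 to -0.0091 in the warmer housings, -0.0250 to -0.0228 after 2 days and -0.0453 to -0.0330 after 7 days. This summary was chosen after the values had been seen and has no test, and the depth of the cells moved with housing as given above, a part that was not tested.

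One cell in 7-day cold replicate 1 had a G2M score of 1.12, while the highest in any other library was 0.125. It lifted the mean score of that library of 17 cells to 0.0211, although its median was -0.0441.

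The phase calls of the same cells in the table of all cells gave much lower shares, with the means of the housings in the same order. There 8.52% of VSM_1 cells were called S or G2M, against 62.1% in the table of named cells, and the calls were equal for 46.4% of the cells. By housing the share was 5.85% ± 2.31 (SD, n = 4), 10.0% ± 4.28 (n = 4), 5.30% ± 3.96 (n = 3) and 1.47% ± 2.94 (n = 4). After 7 days of cold no cell was called in replicates 2, 3 and 4, which allows shares of up to 17.6%, 27.3% and 9.38%. With those calls the estimate for 7-day cold against thermoneutrality was -0.88 (adjusted p = 0.434, limma). Neither set of calls counts dividing cells directly, and with cells of unequal depth no share of cycling cells is read from them.

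**Figure D5:**
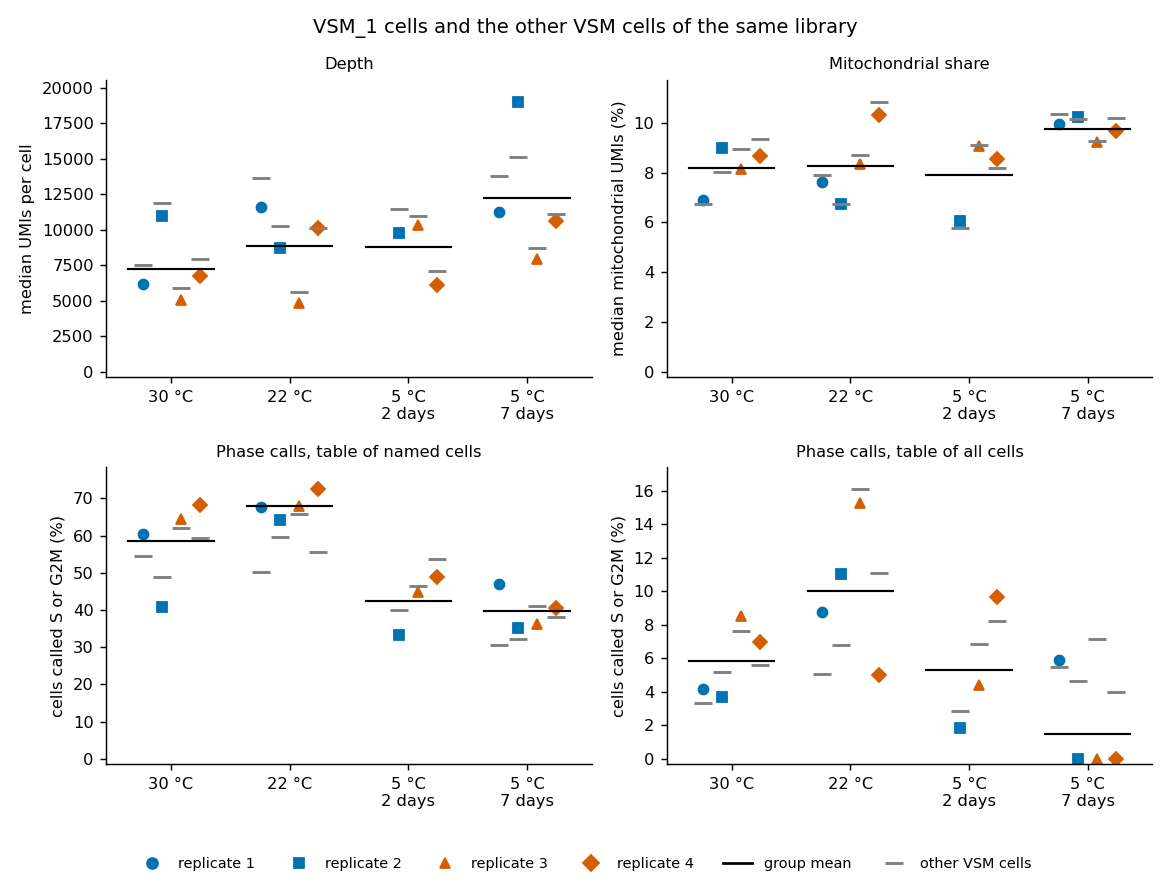
Median UMIs per cell, median mitochondrial share of UMIs in percent, and the percent of cells called S or G2M in each of the authors' tables, for VSM_1 in each library, with a line at the group mean and grey dashes for the other VSM cells of the same library. In the table of named cells the cold libraries lie at 33.3% to 48.9% S or G2M and the room temperature libraries at 64.2% to 72.5%. The thermoneutral libraries, the reference of the tests, lie at 40.7% to 68.1% and overlap the cold ones. In the table of all cells no VSM_1 cell is called in 7-day cold replicates 2 to 4.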

How the data were processed

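Per-cell annotations of 16 libraries were analysed, with 109723 cells in the table of all cells and 24352 in that of named cells. Per the submitters' processing notes, STAR, Cell Ranger 3.0.1 and the build mm10 were used; how cells were filtered, integrated and clustered is not given in the sources used here. UMI counts and gene counts per cell were deposited by the authors without normalisation. The mitochondrial fraction was deposited by the authors and is printed in percent. A complexity ratio per cell (log10 genes over log10 UMIs) was deposited by the authors as well. S and G2M scores, phase calls, cluster numbers and names were deposited by the authors; the named clusters are those of resolution 1.2.

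Shares were computed per library, put on the log2 odds scale with 0.5 cells added, and fitted with limma 3.58.1 (R 4.3.3), with 4 groups in one fit. The variance of each cluster was moderated towards that of the other clusters (empirical Bayes). This treats clusters of the same library as independent, so p-values can be too small where clusters of a library move together. Families were the named clusters and the clusters of all cells that averaged 10 or more cells per library, and the 10 VSM clusters. Measures were fitted over clusters and libraries with at least 10 cells. P-values are two-sided and Benjamini-Hochberg adjusted within a contrast, with a threshold of 0.05. The all-cell cluster is the one holding most VSM_1 cells; other clusters are named where they are VSM clusters or hold at least 5% of VSM_1. Alternatives included edgeR 4.0.16 (quasi-likelihood), other scalings and filters, the replicate number and leaving out each library. The limma step was run on simulated shares with clusters drawn independently and a change larger than that of VSM_1. That simulation had no split of replicates and no links between clusters, so it does not show how the fit behaves with them.

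Wilson intervals (95%) and limits for a count of 0 (3 cells) cover counting error only. No doublet caller was run and no cell was thinned to a common depth. VSM_1, the lists and the split by replicate number were chosen with earlier results of these data known.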

Additional observations from a re-analysis of the deposited data

Results flagged for a closer look

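In groups of 4 libraries, a library was listed when its gap to the nearest other took up most of the range of its group; 2 of the 22 groups examined had one, and chance alone flags about 5% of groups. VSM_1 was 6.81% of the named cells in 7-day cold replicate 4, while the other 7-day cold libraries lay between 1.59% and 2.17%. The all-cell cluster that holds most VSM_1 cells was 1.07% of the cells in 2-day cold replicate 1, below the 3.45% to 3.83% of the other 2-day cold libraries; this is the library without named cells.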

How the results depend on the processing

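Of 630 alternative values for 27 comparisons, 583 kept direction and side of the threshold; where they did not, the cause was not tested unless named. All values are log2 differences with adjusted p from the named tool or limma.

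The share among named cells, 7-day cold against thermoneutrality (-2.04, adjusted p = 0.0537), passed with edgeR (-2.23, 0.0289), TMM scaling (-2.67, 0.0220), a centred log ratio (-2.59, 0.0271), the replicate split as covariate (-2.04, 0.0095) and within replicates 3 and 4 (-3.11, 0.0345). Without 1 library it ran from -2.72 to -1.48 (adjusted p 0.0144 to 0.159), passing without thermoneutral replicate 1 (0.0144) or 2 (0.0418) or 7-day cold replicate 4 (0.0391). Against room temperature it passed with the covariate (-2.15, 0.0146), within replicates 1 and 2 (-2.14, 0.0126), with 2 groups in the fit (-2.15, 0.0462) and without 7-day cold replicate 4 (-2.64, 0.0347); without 1 library it ran from -2.64 to -1.86.

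With only cells of at least 7085 UMIs the 2 estimates were -0.67 (0.623) and -1.30 (0.572), and among VSM cells -0.43 and -1.05. This minimum kept more of VSM_1 than of other named cells in 7-day cold (81.2% and 37.7%), and the part of depth was not tested.

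Room temperature against thermoneutrality (0.12) turned with edgeR (-0.33), TMM (-0.82), the centred log ratio (-0.20) and within replicates 3 and 4 (-0.95), and ran from -0.57 to 0.68 without 1 library. Among VSM cells (0.25) it turned with edgeR (-0.039) and within replicates 3 and 4 (-0.36), and ran from -0.45 to 0.76. For 2-day cold against thermoneutrality among VSM cells the range was -1.20 to 0.14, above 0 without 2-day cold replicate 2, and 7-day against 2-day cold turned within replicates 1 and 2 (0.32).

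For the all-cell cluster, room temperature against thermoneutrality turned with edgeR (0.036) and with cells under 20% mitochondrial UMIs (0.017), and ran from -0.26 to 0.43. With that filter 7-day cold passed against thermoneutrality (-2.34, 0.0296) and room temperature (-2.36, 0.0415). Depth in 7-day cold against thermoneutrality (0.74) passed with the covariate (0.0376) and not by exact permutation (p = 0.0857). The mitochondrial share passed by exact permutation (0.26, p = 0.0286), and ran from -0.11 to 0.094 for room temperature and from -0.18 to 0.12 for 2-day cold without 1 library. The S or G2M share (-1.07, 0.0201) no longer passed with at least 20 cells per library (-1.04, 0.184; 1 library left in 7-day cold, assumed to vary like the other groups, with the estimate nearly the same), by exact permutation (-1.07, p = 0.0571) and with the calls of the all-cell table (-0.88, 0.434), and ran from -1.41 to -0.88 without 1 library.

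With the replicate number as a block, the share among named cells passed in 7-day cold against thermoneutrality (-2.04, adjusted p = 0.0216) and room temperature (-2.15, 0.0252), and so did depth (0.74, 0.0455); the block changed no other call on VSM_1. It moved the count of named clusters called in those comparisons from 10 to 15 and from 2 to 8. The numbers were not taken as pairing the libraries: no label says so, 12 of 21 same-numbered pairs correlated above 0.1 (r from -0.30 to 0.65), and 7 of 15 libraries correlated best with their own number.

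A comparison of phase calls among cells of 2000 to 5000 UMIs, with at least 10 cells per library, gave no estimate for VSM_1. The 7-day cold libraries held 3, 2, 2 and 0 such VSM_1 cells. Low counts were not limited to the cold, since room temperature replicates 1, 2 and 4 held 0, 9 and 0. The 11 to 32 VSM_1 cells per 7-day cold library limit every value of that group.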
